A study of Mus musculus with 12 samples.

Results

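The 8 mouse genes described here encode apolipoproteins or act in lipoprotein assembly, and they were chosen by name. Apoe, Apoc1, Apoc4 and Apoc2 lie side by side on chromosome 7 (the Apoe cluster), while Apob, Mttp, Apoa2 and Apoh lie on chromosomes 12, 3, 1 and 11. Binding of CTCF, an insulator protein with zinc fingers, was measured by ChIP-seq (sequencing of DNA precipitated with an antibody to the protein) in snap-frozen whole livers. The mice were wild-type C57BL6/Ncrl males on normal chow, 3 to 4 months old. In 3 libraries the mice had gone 24 h without food and livers were taken at ZT13 (zeitgeber time, in hours of the light cycle). In the other 3 libraries the mice had fed ad libitum and livers were taken at ZT16. Feeding state and collection time therefore cannot be told apart. Whole liver holds several cell types, and no transcripts were measured, so the tissue could not be checked by marker genes. Whether each library stands for a different mouse is not stated in the labels, so p-values measure the spread between libraries, which may be technical.

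Peaks were called per library, each with a score whose meaning is not given. Merging peaks that shared 1 bp or more across the 6 lists gave 76061 sites. Among them, 43 distinct sites overlapped the body of 1 or more of the 8 genes (of 49997 annotated genes) or the 20 kb on either side. They are numbered along the chromosome within each locus. A rank below is the percentile of a peak's score within its own list. The starved lists held 30752, 23926 and 29866 peaks, against 56103, 49030 and 74950 in the fed lists, with mean peak widths of 261 to 389 bp against 444 to 472 bp. Ranks from lists of different length do not measure a change. How many of all sites have full-list ranks that do not overlap between the groups was not counted.

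Lipoproteins carry triglyceride and cholesterol between organs, and the liver builds very low density lipoprotein by loading lipid onto apolipoprotein B. Exchangeable apolipoproteins then ride on the particles and govern their lipolysis and clearance. CTCF and cohesin together hold the base of chromatin loops, and CTCF sites often flank gene clusters.

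The promoters differed in how far CTCF peaks reached into them, and 4 are shown here as the contrast, from an Apoa2 and an Apoe promoter with a peak in every fed library to an Apob promoter with none. The sequences are RefSeq windows of 300 bases in GRCm38.p6, the build also called mm10, with 250 bases before an annotated start in lower case and the 50 bases from that start on in capitals. In the Apoa2 window (chr1:171221314-171221613, plus strand), peaks covered 23, 0 and 0 bases in starved livers, against 105, 57 and 300 bases in fed livers. The peak there was called in all 6 libraries, so the bases tell how far it reached. Every starved width was below every fed width at 90.4% of the 22131 sites called in all 6 libraries. How many of all windows differ in this way was not counted. In the Apoe window (chr7:19698349-19698648, minus strand), peaks covered 23, 0 and 88 bases in starved livers, against 300, 85 and 214 bases in fed livers, so that starved 3 lay above fed 2. In the Mttp window (chr3:138143369-138143668, minus strand), they covered 0 bases in each starved library, against 52, 0 and 277 bases in the fed libraries. The Apob window (chr12:7977427-7977726, plus strand) held no peak in any library. Other windows of Apoa2 and Apoe were covered less than those shown. At the Apoa2 start at 171225054, peaks covered 74 bases in fed 3 alone. At the Apoe start at 19698621 they covered 94 bases in fed 1 alone, and at the start at 19699188 none in any library.
Apoa2: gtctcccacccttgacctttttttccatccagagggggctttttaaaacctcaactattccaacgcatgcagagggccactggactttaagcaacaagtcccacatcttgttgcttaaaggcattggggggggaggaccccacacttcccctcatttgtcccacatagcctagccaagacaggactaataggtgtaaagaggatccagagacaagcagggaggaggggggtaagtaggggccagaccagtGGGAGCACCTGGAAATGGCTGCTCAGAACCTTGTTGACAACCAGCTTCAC
Apoe: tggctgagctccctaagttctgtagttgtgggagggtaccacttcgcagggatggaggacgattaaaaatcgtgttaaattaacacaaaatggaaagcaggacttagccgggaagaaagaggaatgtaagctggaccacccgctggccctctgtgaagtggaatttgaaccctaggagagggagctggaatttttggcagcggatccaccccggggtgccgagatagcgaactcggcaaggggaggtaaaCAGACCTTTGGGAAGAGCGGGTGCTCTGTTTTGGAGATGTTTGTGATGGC
Mttp: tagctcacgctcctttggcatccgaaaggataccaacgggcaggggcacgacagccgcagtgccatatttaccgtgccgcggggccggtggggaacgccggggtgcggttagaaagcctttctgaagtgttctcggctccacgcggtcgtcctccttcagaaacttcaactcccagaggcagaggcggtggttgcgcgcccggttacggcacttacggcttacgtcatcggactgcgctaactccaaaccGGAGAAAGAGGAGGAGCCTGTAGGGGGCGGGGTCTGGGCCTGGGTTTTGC
Apob: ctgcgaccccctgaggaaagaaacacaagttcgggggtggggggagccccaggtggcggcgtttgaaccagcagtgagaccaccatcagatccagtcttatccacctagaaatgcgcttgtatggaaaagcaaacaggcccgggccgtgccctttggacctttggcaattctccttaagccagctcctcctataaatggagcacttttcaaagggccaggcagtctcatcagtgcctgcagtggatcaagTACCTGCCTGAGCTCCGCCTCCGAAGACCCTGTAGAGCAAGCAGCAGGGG

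Promoter windows were given for 7 of the 8 genes, 10 windows in all. Of these, 5 overlapped a merged site, against 27.0% of all 32851 promoter windows. The 5 belong to Apoa2, Apoe and Mttp alone. The Apoe windows among them overlap each other and met the same site, so the windows are not separate counts. The upstream Apoa2 window was the only 1 of the 10 to touch a merged site called in all 6 libraries, against 7.90% of all windows. The starved peaks of that site ended short of the start itself. The remaining 5 windows, of Apob, Apoc2, Apoc4, Apoh and the Apoe start at 19699188, overlapped no site.

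Across the 5 loci, the strong CTCF sites were called in every library and the weaker ones mostly in fed livers. Of the 43 sites, 21 were called in all 3 fed libraries, and 11 of these were called in all 3 starved libraries as well (52.4%, against 49.3% of such sites genome-wide). Another 4 of the 21 had no starved peak (19.0%, against 29.1% genome-wide), and 6 were called in some starved libraries. Genome-wide, the sites called in some starved libraries make up what those shares leave. All 6 here lay in the Apoe cluster, which held 11 of the 21 sites. Of the remaining 22 sites, 16 were called in fed 3 and no other library (37.2% of the 43, against 24.7% of all sites), fed 3 being the longest list. Without fed 3 the number of distinct sites was 27, and without fed 2 there were 7 sites that every remaining fed library and no starved library held.

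**Figure D1:**
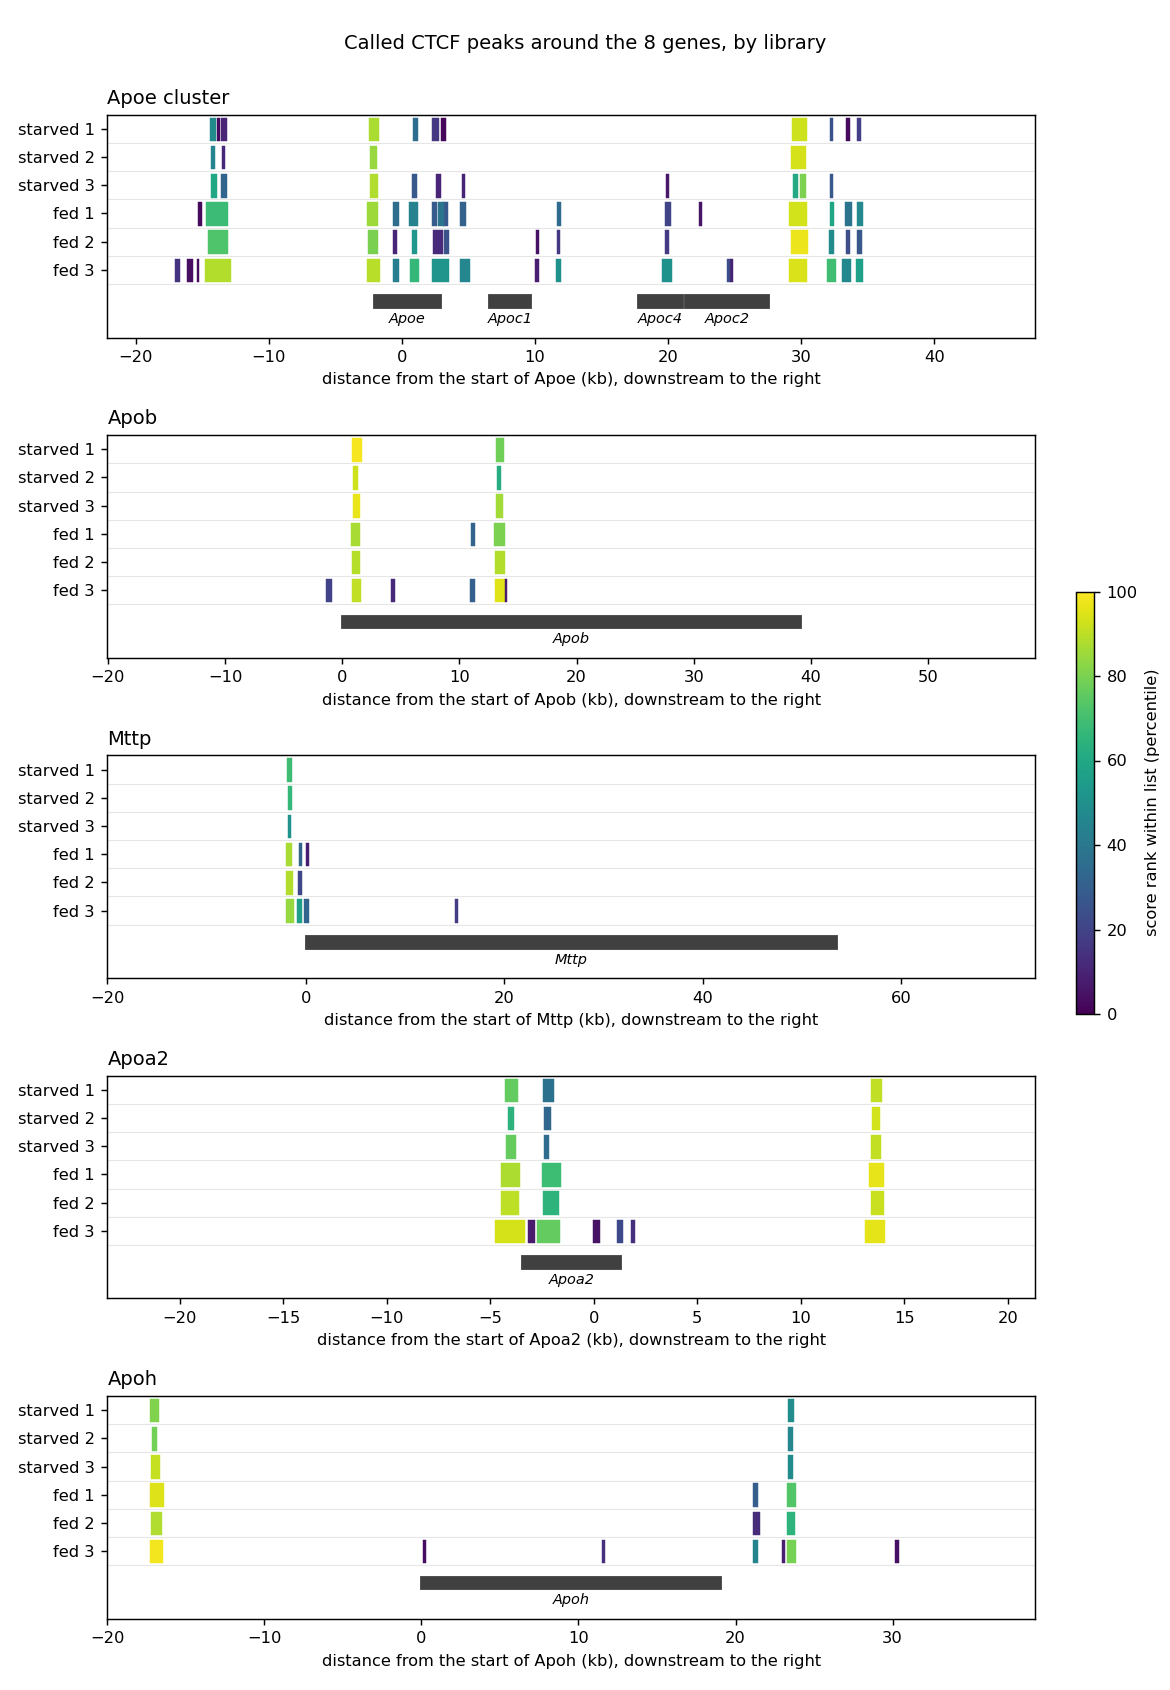
Called CTCF peaks at the 5 loci, 1 row per library, with distance from an annotated start in kb on the x axis (19699188 for Apoe and 171225054 for Apoa2, downstream to the right), gene bodies as dark bars and colour giving the score rank within the list. Bright peaks line up in all 6 rows, and dark, low-ranked peaks are found mostly in the fed rows.

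Per library, the Apoe cluster held 8, 3 and 8 sites in starved libraries 1 to 3, against 14, 12 and 18 in fed libraries 1 to 3. The groups did not overlap, and the mean was 6.33 ± 2.89 in starved and 14.7 ± 3.06 in fed libraries (SD, n = 3 each; two-sided exact permutation p = 0.1, adjusted p = 0.167 over 5 loci). At Mttp the counts were 1 in each starved library, against 3, 2 and 4 in the fed libraries (mean 1 ± 0 against 3 ± 1; exact p = 0.1, adjusted p = 0.167). The Mttp groups overlapped, with a starved minus fed difference of -0.33 sites in place of -2 (exact p = 1), when peaks within 500 bp were merged, and likewise when peaks scored below the median of all lists were left out. Apoh had 2 sites in each starved library, against 3, 3 and 7 in the fed libraries (2 ± 0 against 4.33 ± 2.31; exact p = 0.1, adjusted p = 0.167). The smallest p that 3 libraries against 3 allow is 0.1. Counts overlapped at Apob, with 2 in each starved library against 3, 2 and 6 fed (exact p = 0.4, adjusted p = 0.5). They also overlapped at Apoa2, with 3 in each starved library against 3, 3 and 7 fed (exact p = 1). Fed 3 had the highest count at each locus. Without it the starved minus fed difference was -0.5 sites at Apob in place of -1.67, 0 at Apoa2 in place of -1.33, and -1 at Apoh in place of -2.33. Without fed 2, the shortest fed list, it was -2.5 at Apob and -2 at Apoa2.

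Counted by gene, 6 of the 8 had fewer sites in every starved than in every fed library, with Apob and Apoa2 the exceptions. Of 18094 protein-coding genes with a site, 59.1% did so, and 0% had the reverse. The genes of the cluster share sites, so their counts are not separate evidence. When each list was reduced to its 23926 best-scored peaks, the length of the shortest, 0 of the 8 genes had lower counts in every starved library, where 1.63% of genes did. Likewise 0 of the 8 had higher counts in every starved library, where 0.761% of genes did. The Apoe cluster then held 0.33 sites more per starved than per fed library (exact p = 1), and at the other loci the difference was 0.

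**Figure D2:**
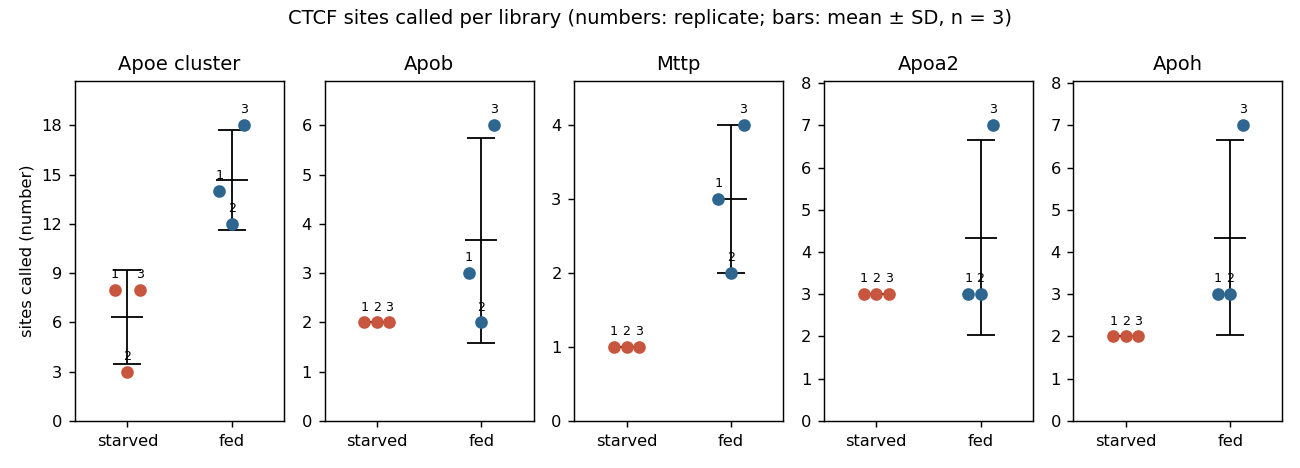
Number of CTCF sites called in each library (y axis) at the 5 loci, starved left of fed, with points for libraries and bars for mean ± SD (n = 3). The groups do not overlap at the Apoe cluster, Mttp and Apoh, and fed 3 has the highest count at each locus.

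The Apoe cluster had the most sites. Apoe had 13 sites in its window, Apoc1 13, Apoc4 15 and Apoc2 12, where the median protein-coding gene with a site had 5. Between 91.4% and 96.1% of those genes had fewer sites than these 4. Apob had 6, Mttp 4, Apoa2 7 and Apoh 7. The windows of the 4 cluster genes overlap and share sites, so their numbers are not separate observations. In lists of equal length Apoe had 3 sites, Apoc1 4, Apoc4 4 and Apoc2 2, against 2 for Apob, 1 for Mttp, 3 for Apoa2 and 2 for Apoh.

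Apoe encodes the ligand by which remnant particles are taken up through the low density lipoprotein receptor family, and its body runs over 19696244 to 19701310 of chromosome 7 on the minus strand. The best-ranked site at the gene itself, site 15 (chromosome 7, 19700902 to 19701806), spanned the upstream annotated end of Apoe and the adjoining end of Tomm40, the channel of the mitochondrial outer membrane. No promoter window was given for that upstream end, at 19701310. The midpoint of site 15 lay 2166 bp upstream of the Apoe start at 19699188, the nearest with a window. It ranked at 87.3, 84.4 and 88.3 in starved livers, against 85.4, 79.8 and 89.4 in fed livers. The authors' scores there were 93.0, 55.5 and 88.6 in starved and 151, 134 and 222 in fed livers.

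Nearer the 3 Apoe starts that have a promoter window, calls were weaker. Site 13 (19697967 to 19698665), which as merged covers 2 of the 3 Apoe promoter windows in whole or in part, ranked at 35.3 in starved 1 and 27.7 in starved 3, with no peak in starved 2, against 43.8, 52.97 and 66.4 in fed livers. Site 14 (19699488 to 19699884), with its midpoint 498 bp upstream of the start at 19699188, had no starved peak and fed ranks of 35.4, 10.8 and 42.4. Site 12 (19695706 to 19696918), at the downstream end of Apoe, ranked at 15.9 in starved 1 and 10.2 in starved 3, against 38.1, 25.2 and 52.0 in fed livers. Where starved livers had a peak at sites 12 and 13, its rank was below every fed rank in these lists of unequal length. In the lists reduced to equal length, site 13 was held by starved 1 and starved 3 at ranks of 16.9 and 9.74, against fed 2 alone at 3.62. Site 11 (19694165 to 19694834), between Apoc1 and Apoe, was called in starved 3, fed 1 and fed 3.

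On the other side of the cluster, site 4 (19668724 to 19670123) lay 1456 bp beyond Apoc2, the activator of lipoprotein lipase (19671579 to 19677941, minus strand). Ranks there were 92.5, 93.4 and 80.1 in starved livers, against 93.2, 97.1 and 94.4 in fed livers. Fed and starved ranks overlapped, and starved 3 was the lowest, with the site split into 2 called peaks. Sites 4 and 15 are 30778 bp apart and enclose Apoc2, Apoc4, Apoc1 and most of Apoe. The pair was picked after its values were seen. Between them lay 10 sites, with 2, 0 and 4 called in starved livers, against 7, 6 and 9 in fed livers. The highest rank among these 10 was 35.3 in starved and 66.4 in fed livers.

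Within the cluster, Apoc4, a minor apolipoprotein of triglyceride-rich particles (19678084 to 19681460, minus strand), had site 8 in its body (19678998 to 19679656), called in starved 3 at a rank of 5.94, against fed ranks of 20.2, 16.5 and 50.4. Apoc1, a small apolipoprotein that slows remnant uptake (19689480 to 19692659), had 0 sites in its body. On its Apoc4 side lay site 10 (19688927 to 19689148), 332 bp away and called in 2 fed libraries, and then site 9 (19687328 to 19687629), with no starved peak and fed ranks of 34.1, 17.1 and 50.4. On its Apoe side lay site 11, described above. The body of Apoc2 held sites 5, 6 and 7, each called in 1 fed library at a rank between 5.09 and 23.0.

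Sites at the edges of the cluster window lay in or near neighbouring genes. Site 16 (19712125 to 19713975), inside Tomm40, ranked at 48.1, 44.995 and 59.7 in starved livers, against 68.3, 72.5 and 88.5 in fed livers, without overlap. In lists of equal length the groups overlapped there, with a mean difference of -1.74 points. Site 16 was called as 3, 2 and 2 peaks in starved libraries, against 1 peak in each fed library. Site 1 (19664586 to 19665079), at the start of Clptm1, and site 2 (19665457 to 19666091) were called in starved 1 and all fed libraries. Site 3 (19666649 to 19667209) was called in starved 1 and starved 3 at ranks of 25.02 and 27.7, against 59.2, 48.1 and 69.2 in fed livers. Sites 17, 18 and 19, in Tomm40 and the noncoding gene Gm38955, had fed peaks alone, at ranks up to 14.7.

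**Figure D3:**
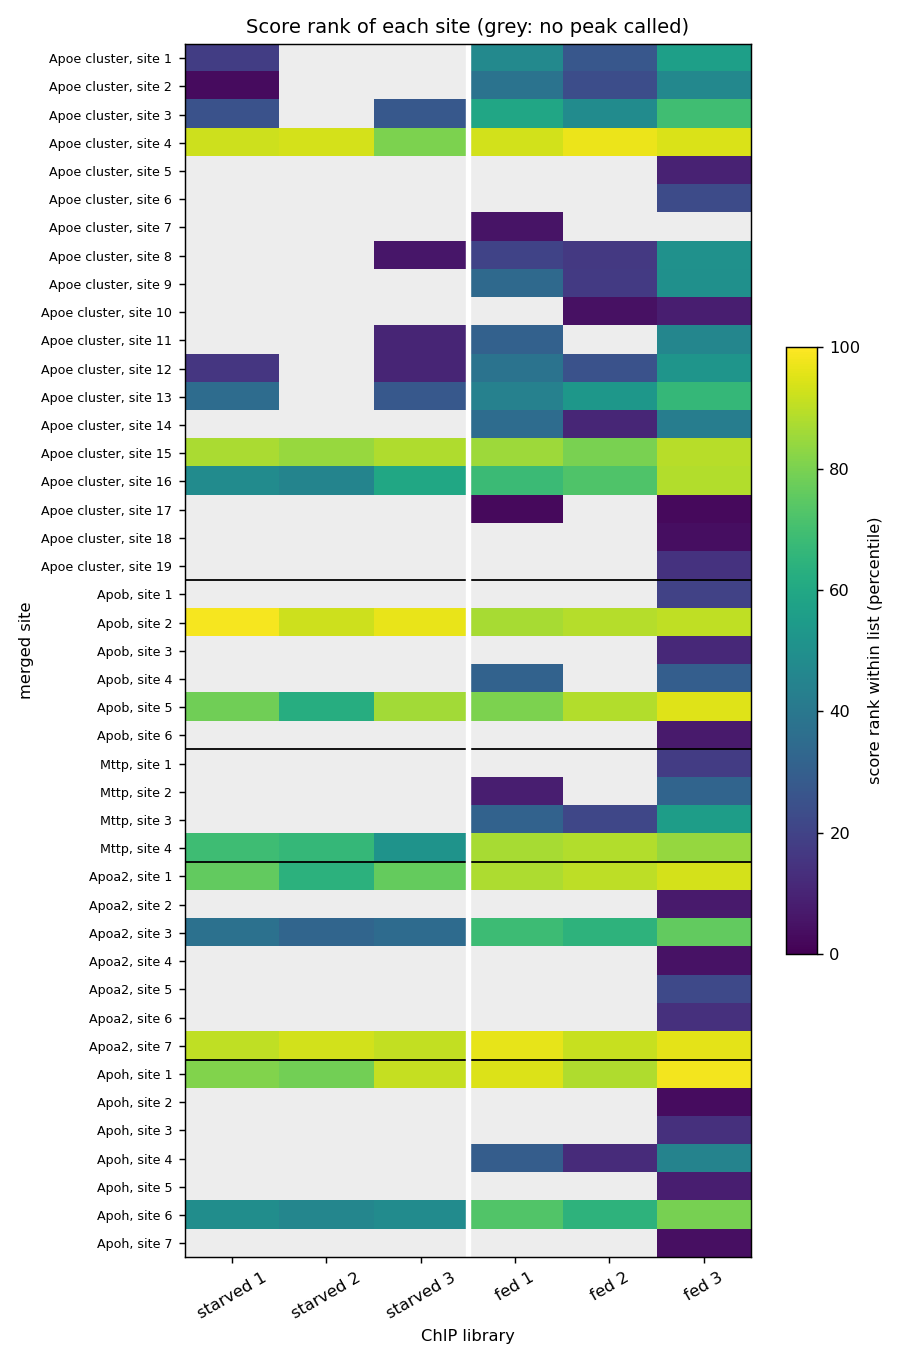
Score rank of each of the 43 sites (rows) in the 6 libraries (columns), as a percentile within the list, with grey where no peak was called. Sites 4 and 15 of the Apoe cluster and site 2 of Apob are bright across all columns, while most rows with grey starved cells are dark in the fed columns.

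Apob encodes the structural protein that each very low density lipoprotein particle carries (chromosome 12, 7977629 to 8016839, plus strand). Its best-ranked site, site 2 (chromosome 12, 7978464 to 7979289), lay inside the gene, with its midpoint 1.20 kb downstream of the start. It ranked at 98.7, 92.5 and 96.7 in starved livers, against 87.1, 89.0 and 90.4 in fed livers. Every starved rank was above every fed rank, although the scores were 164, 69.8 and 122 in starved and 158, 172 and 229 in fed livers. Site 5 (7990629 to 7991483), with its midpoint 13.4 kb inside the gene, ranked at 78.4, 62.4 and 86.1 in starved livers, against 80.4, 88.4 and 95.0 in fed livers. Within each starved library site 2 scored above site 5, as it did in fed 1 and fed 2, whereas in fed 3 site 5 was higher. The other 4 Apob sites had no starved peak, and of these only site 4 (7988541 to 7988942) was called in more than 1 fed library, in fed 1 and fed 3.

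Mttp encodes the transfer protein that loads lipid onto apolipoprotein B (chromosome 3, 138089855 to 138143418, minus strand), and it starts next to the divergent gene Trmt10a, a tRNA methyltransferase. Its sites were gathered at this shared start. Site 4 (chromosome 3, 138144682 to 138145448), inside Trmt10a and with its midpoint 1647 bp upstream of the Mttp start, ranked at 68.9, 66.5 and 51.5 in starved livers, against 86.9, 88.4 and 84.2 in fed livers. The groups did not overlap in these lists of unequal length. In lists of equal length they did, with a mean difference of -9.98 points. Site 3 (138143870 to 138144256), with its midpoint 645 bp upstream, had no starved peak and fed ranks of 31.3, 21.3 and 55.7. Site 2 (138143209 to 138143645), over the Mttp start, was called in fed 1 at a rank of 8.32 and in fed 3 at 32.3. The body of Mttp, 53564 bp long, held 1 further site, called in fed 3.

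Apoa2 encodes a major protein of high density lipoprotein (chromosome 1, 171221564 to 171226379, plus strand), and RefSeq gives it starts at 171221564 and 171225054 on chromosome 1. Site 1 (171220285 to 171221704), beside the upstream start and overlapping Tomm40l, ranked at 75.9, 64.4 and 76.3 in starved livers, against 87.7, 90.1 and 93.4 in fed livers. Its fed 3 peak alone reached over the start. Site 3 (171222287 to 171223405), between the starts, ranked at 37.3, 32.5 and 34.8 in starved livers, against 68.5, 64.5 and 76.2 in fed livers. In neither did the groups overlap in these lists of unequal length. In lists of equal length they overlapped at site 3, with a mean difference of -2.67 points, but not at site 1 (-8.84 points). The downstream start was covered by site 4 (171225030 to 171225310), called in fed 3 at a rank of 5.05. Sites 2, 5 and 6 were also called in fed 3 only.

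Apoh encodes a plasma glycoprotein that binds phospholipid (chromosome 11, 108395297 to 108414396, plus strand), and its strong sites lay outside the gene. Site 1 (chromosome 11, 108377986 to 108378812), 16485 bp from Apoh and inside the noncoding gene Gm36709, ranked at 81.0, 78.5 and 91.2 in starved livers, against 94.9, 88.3 and 98.2 in fed livers, with starved 3 above fed 2. Site 6 (108418571 to 108419105), 4175 bp beyond the downstream end, ranked at 49.1, 46.1 and 48.2 in starved livers, against 72.8, 64.5 and 79.6 in fed livers, without overlap. In lists of equal length the groups overlapped at site 6, and the mean difference had the opposite sign (5.48 points, against -24.5 in full lists). Site 4 (108416396 to 108416793), 2000 bp beyond the downstream end, had no starved peak and fed ranks of 29.5, 12.2 and 44.8. The body of Apoh held sites 2 and 3, both called in fed 3 only. Sites 5 and 7, beyond its downstream end, were also called in fed 3 only, at ranks of 8.44 and 3.99.

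Ranks were then set side by side in the lists reduced to 23926 peaks. In these, 13 sites remained in the windows, and 11 were in all 6 lists. The equal length takes all of the starved 2 list but a smaller top part of the others. At 2 of the 11 sites every starved rank was above every fed rank (18.2%, against 7.26% of 19291 such sites genome-wide), and at 1 every starved rank was below (9.09%, against 7.76%). Site 2 of Apob ranked at 98.3, 92.5 and 95.9 in starved livers, against 69.7, 77.4 and 69.9 in fed livers, a difference of 23.2 percentile points between the means. Site 15 of the Apoe cluster ranked at 83.7, 84.4 and 85.4 in starved livers, against 65.7, 58.6 and 67.0 in fed livers, a difference of 20.7 points. Site 1 of Apoa2 ranked at 69.0, 64.4 and 70.4 in starved livers, against 71.2, 79.8 and 79.3 in fed livers, a difference of -8.84 points. At the other 8 sites the groups overlapped, with differences between -9.98 and 5.48 points. In full lists the difference at site 15 of the Apoe cluster was 1.78 points and the groups overlapped.

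**Figure D4:**
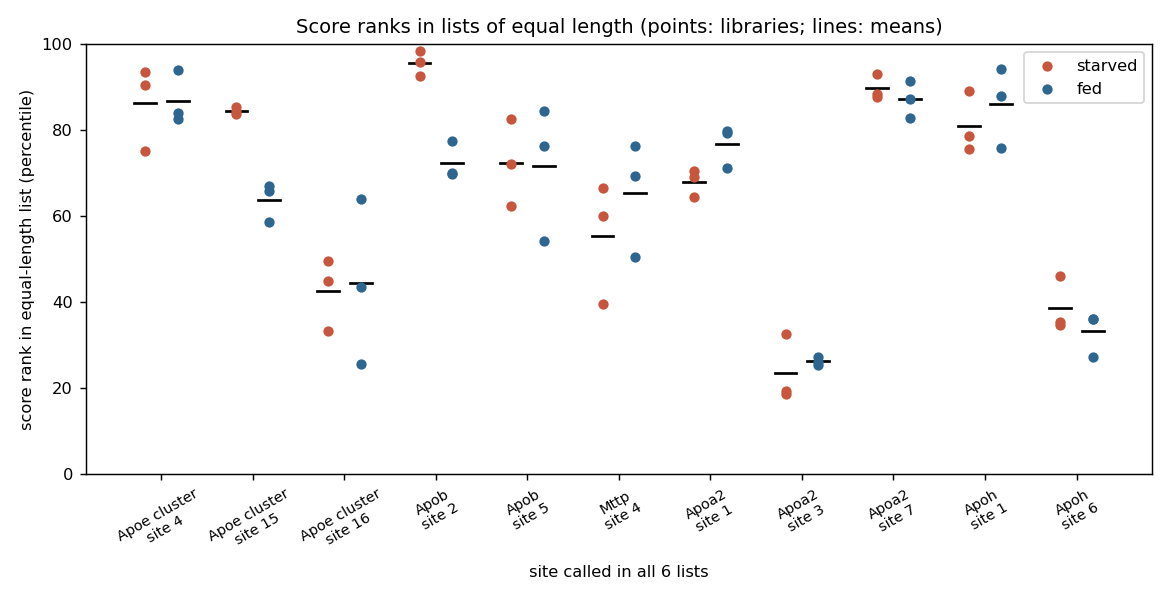
Score rank (y axis, percentile) of the 11 sites called in all 6 lists of equal length, with starved libraries left of fed libraries, points for libraries and lines for means. Starved points lie above all fed points at site 2 of Apob and site 15 of the Apoe cluster, and below them at site 1 of Apoa2.

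Peak widths were also compared at the 11 sites. At 9 of them every starved width was below every fed width (81.8%, against 90.4% of 22131 sites called in all 6 libraries). The exceptions were site 2 of Apob, at 530 ± 231 bp in starved and 635 ± 21.1 bp in fed livers, and site 15 of the Apoe cluster, at 546 ± 142 bp in starved and 776 ± 97.1 bp in fed livers (SD, n = 3 each). By contrast, site 16 inside Tomm40 was 673 ± 255 bp wide in starved and 1622 ± 204 bp in fed livers, where the width is the length under called peaks. The mean width of the whole lists was also lower in the starved libraries, and its part in this was not tested. The mean widths of the starved 2 and starved 3 lists were 261 and 320 bp. Most of the 11 sites were narrower in starved 2 than in starved 3, such as site 2 of Apob at 301 against 525 bp. Some were wider in starved 2. Site 4 of the Apoe cluster was 1019 bp wide in starved 2 and 666 bp in starved 3, where it was called as 2 peaks.

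Other genes of lipoprotein metabolism were described from 5 lists of 53 genes, all matched and all with a site (against 82.6% of protein-coding genes). Of the 53, 41 had a site called in all 6 libraries within 20 kb (77.4%, against 78.6% of protein-coding genes with a site), and 38 had a site that each fed library but no starved library held (71.7%, against 56.9% of them). Fewer sites in every starved than in every fed library were found for 40 (75.5%, against 59.1% of them), and the reverse for 0. The median number of distinct sites was 7 for these genes, against 5 for protein-coding genes with a site, and genes with more sites have more chances to be counted. Neighbouring genes in the lists, such as Apoa1 and Apoa4, can share sites, so the 53 are not separate observations.

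By role, a site in all 6 libraries was found for 9 of 14 plasma apolipoproteins and partners and 11 of 14 genes of apolipoprotein B particle assembly. It was found for 6 of 8 lipases and regulators, 7 of 7 genes of high density lipoprotein remodelling and lipid export, and 8 of 10 receptors and regulators. The shares in these short lists ran from 64.3% to 100%, against 78.6% of protein-coding genes with a site. Scarb1, the receptor for high density lipoprotein, had such a site 4757 bp outside the gene (chromosome 5, 125270527 to 125272330) at mean ranks of 98.6 in starved and 99.0 in fed livers. P4hb, the protein disulfide isomerase that partners Mttp, had 1 at 5972 bp outside (chromosome 11, 120579225 to 120580692), at 97.5 in starved and 98.7 in fed livers. Abca1, the cholesterol exporter, had 1 inside its body (chromosome 4, 53158417 to 53159111) at 97.7 in starved and 97.2 in fed livers. Clu, an apolipoprotein and chaperone, had 1 at 284 bp from the gene (chromosome 14, 65981832 to 65982705), at 95.3 in starved and 96.9 in fed livers. Lsr, a lipoprotein receptor, had 1 inside the gene (chromosome 7, 30973459 to 30974678), at 93.5 in starved and 96.3 in fed livers. Lrp1, a remnant receptor, had 1 inside (chromosome 10, 127537573 to 127538814), at 81.0 in starved and 92.8 in fed livers.

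The other genes named in each list had the following mean ranks at their best site. Saa2 had 96.1 in starved and 95.4 in fed livers and Saa4 had 95.0 in starved and 95.2 in fed livers, both outside the gene. Cideb, a lipid droplet protein, had 90.9 in starved and 93.7 in fed livers, and Sec24a, a vesicle coat protein, 88.3 in starved and 93.4 in fed livers. Lcat, the enzyme that esterifies cholesterol on high density lipoprotein, had 91.3 in starved and 94.4 in fed livers. Lmf1 had 91.1 in starved and 98.7 in fed livers. Angptl8, an inhibitor of lipoprotein lipase, had 70.9 in starved and 89.5 in fed livers. Gpihbp1, the capillary anchor of that lipase, had 61.1 in starved and 88.2 in fed livers. Lrp8, a receptor for apolipoprotein E, had 80.7 in starved and 89.2 in fed livers.

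Sites with 3 fed and no starved peak ranked lower. Inside Abca1 such a site (chromosome 4, 53126212 to 53126854) had a mean fed rank of 58.4, and inside Lmf1, the maturation factor of lipases (chromosome 17, 25590995 to 25591357), 56.9. Sar1b, a coat protein needed to export large lipoprotein particles (chromosome 11, 51789795 to 51790411), had 1 at 49.1, and Lipc, the hepatic lipase (chromosome 9, 70843206 to 70843731), 1 at 47.9. Sdc1, a proteoglycan receptor of remnants, had 1 at 39.7, inside the gene. Surf4, a cargo receptor of secretion, had 1 at 40.9, 10274 bp away. Scarb1 had 1 at 46.9, 11829 bp away. Apoa1 and Apoa4, neighbouring genes for apolipoproteins of high density lipoprotein, shared 1 at 41.5, inside Apoa1.

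The best sites of the 41 list genes were also set beside the best site of a locus, by the mean absolute difference in rank over the 6 libraries. Only best-ranked sites were compared and the nearest taken, so small differences follow from the choice. They are a description, with no value over all sites beside them. Nearest to site 2 of Apob were the sites of Saa2 and Saa4, serum amyloid proteins of high density lipoprotein, at 3.48 and 3.65 percentile points. For site 4 of the Apoe cluster they were Sec24a at 5.28 and Saa2 at 5.34. For site 4 of Mttp they were Gpihbp1 at 6.05 and Mia3, an export receptor of large cargo, at 7.02. For site 1 of Apoh they were Lrp1 at 2.25 and Sec24a at 3.37.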

How the data were processed

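The 6 deposited peak lists, 1 per ChIP library and not pooled, gave each peak a position, a name and a score. The authors' score has no unit stated, and the sources used here give no read depth. The submitters' processing notes name HOMER, MACS2, bedtools 2.17, SAMtools, BWA 0.7.5a and FastQC on mm10, whose roles are not stated. The 3 starved and 3 fed input libraries were not analysed here. Peak number depends on depth and enrichment, which cannot be told apart from feeding state in such lists.

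Groups and replicate numbers came from the sample titles. Peaks sharing 1 bp were merged, and a site counted for a library that had a peak in it, with the best-scored peak giving the rank. Gene bodies came from RefSeq (GRCm38.p6), which gave no exons here. Coordinates count from 1. Site numbers per library were compared by two-sided exact permutation over 20 labellings, with Benjamini-Hochberg adjustment over 5 loci. Counting rules and the permutation test were checked on simulated data. Named are the 8 genes, their sites and, for each list, at most 3 genes by the mean rank of their site in all 6 libraries and 2 by the rank of a site called in fed libraries alone. A planned motif count, 1 site and some list genes are not reported here. The genes, lists and tests were chosen with earlier results of these data known. Replicate numbers were not taken to pair the libraries. Software was matplotlib 3.10.9, scipy 1.17.1, numpy 2.4.6 and pandas 2.3.3 under Python 3.11.15.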

Additional observations from a re-analysis of the deposited data

How the results depend on the processing

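With lists of equal length the windows held 13 distinct sites in place of 43, of which 11 were in all fed lists and 0 in all fed and no starved list. The starved minus fed difference in sites per library was then 0.33 at the Apoe cluster (the opposite sign to -8.33) and 0 at Apob, Mttp, Apoa2 and Apoh. With scores at or above the median of all lists (30.4) there were 15 distinct sites, 12 in all fed lists. The differences were then -2.67 at the Apoe cluster, 0 at Apob, -0.33 at Mttp, -1 at Apoa2 and -1 at Apoh. The groups came to overlap at Mttp (exact p = 1) and no longer did at Apoa2 (exact p = 0.1). Windows of 50 kb held 17 sites called in all 6 libraries, and the difference at Apoa2 was -3.33 without overlap (exact p = 0.1). Merging within 500 bp gave -0.33 at Mttp, where the groups then overlapped (exact p = 1), and -0.67 at Apoa2. Windows of 5 kb and trimming to 200 bp left the exact p of each locus at its value. Without 1 library in turn there were 27 to 43 distinct sites, with 21 to 25 in all remaining fed lists. Of these, 4 to 7 had no peak in the remaining starved lists and 11 to 14 were in all remaining lists. Leaving out a list makes such classes easier to meet. The differences ran from -9.67 to -6.67 at the Apoe cluster, -2.5 to -0.5 at Apob, -2.5 to -1.5 at Mttp, -2 to 0 at Apoa2 and -3 to -1 at Apoh.

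Same-numbered libraries correlated between -0.041 and 0.032 in their deviations over 18094 genes, so the numbers were not taken to pair them. The replicate block gave exact permutation p-values of 0.25 at the Apoe cluster (difference -8.33), Mttp (-2) and Apoh (-2.33), 0.5 at Apob (-1.67) and 1 at Apoa2 (-1.33), where 0.25 is the smallest possible. Added after seeing the data, leaving out 1 library gave rank differences in lists of equal length of 21.8 to 25.7 at site 2 of Apob, 18.1 to 22.3 at site 15 of the Apoe cluster and -11.6 to -7.07 at site 1 of Apoa2. In full lists they were 7.12, 1.78 and -18.2, and the groups overlapped at the Apoe site. The cause of these dependences was not tested. Peak lists hold no depth, so an uncalled site may be bound below the calling limit.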
